A study of Mus musculus with 28 samples.

Results

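Grb10, Gnas, Igf2r, Commd1, Zrsr1, Inpp5f, Nnat, H13 and Nap1l5 are 9 imprinted genes on chromosomes 2, 6, 7, 11 and 17 of the mouse. They were chosen by name, as imprinted loci with and without a gain of 5-hydroxymethylcytosine (5hmC) at their control region. They make up 9 of the 37991 genes in the count tables and all 9 were among the 20321 genes tested. The deposited table of imprinting control regions (ICRs) held 32 regions, of which 10 lay in or within 10 kb of a member. Those 10 regions served 8 of the 9 genes, and Nnat had no region in that table. A list in the study's supplement places some regions differently, includes one for Nnat, and puts that of Nap1l5 beside the deposited Nap1l5/Herc3 region without overlap; its coordinates were not used here.

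RNA was measured in mouse embryonic stem cells (mESCs) of the line J1, strain 129S4/SvJae. The cells were kept naive in N2B27 medium with leukaemia inhibitory factor, 1 µM of the MEK inhibitor PD 0325901 and 3 µM of the GSK3 inhibitor CHIR 99021. They were transduced with a lentiviral hairpin, either empty (shEmpty) or against Kap1 (shKap1), selected with 4 µg/mL puromycin and collected after 5 days. The genotypes were wild type (WT, n = 3 libraries per hairpin), a knockout of Dnmt1, Dnmt3a and Dnmt3b (DNMT TKO, n = 3 per hairpin) and a knockout of Tet1, Tet2 and Tet3 (TET TKO, n = 2 per hairpin). Each genotype was 1 line and the mutant lines were obtained from other groups, so a mutation and its line cannot be told apart. The wild type cells also gave 5hmC immunoprecipitations (hMeDIP) and inputs for both hairpins, with 1 library per condition that could be assigned, and ChIP of H3K4me3 and H3K27me3 in 2 replicates each.

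Imprinted genes are expressed mainly from 1 parental copy, as set by an ICR that is methylated on only 1 of the copies from the germ line onwards; either the methylated or the unmethylated copy can be the active one, and at Igf2r it is the methylated one. KAP1, the product of Trim28, is a corepressor that zinc finger proteins such as ZFP57 bring to the methylated copy, where it maintains H3K9me3 and DNA methylation. DNMT enzymes write 5-methylcytosine, and TET enzymes oxidise it to 5hmC. Many members sit in pairs, since Zrsr1 lies in an intron of Commd1, Nap1l5 in Herc3, Nnat in Blcap and Mcts2 in H13, while Airn starts in an intron of Igf2r and runs against it.

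The ICR sequences are shown here because ZFP57 binds the hexamer TGCCGC when its CpG is methylated, and the regions differed in how many copies they hold. Both strands were searched, so a copy on the other strand reads GCGGCA, and overlapping copies were counted separately. The first H13 region held 3 copies in 653 bp (4.59 per kb), the Igf2r/Airn region 7 in 1189 bp (5.89 per kb), the upstream Gnas region 12 in 6883 bp (1.74 per kb), the main Grb10 region 4 in 3475 bp (1.15 per kb) and the Commd1/Zrsr1 region 2 in 2600 bp (0.769 per kb). The short regions of Inpp5f (109 bp), Nap1l5/Herc3 (393 bp) and the second one of Grb10 (126 bp) held 0. Over windows of 300 bp at the centre of each region, the hexamer was present in 18.6% of 26222 KAP1 regions, in 2 of the 10 member regions and in 11 of the other 22 ICRs. The windows printed are of mm9, plus strand, read from the genome sequence outside annotated untranslated exons, each the 150 bp (or the whole region where shorter) with most copies and then most CpGs, with the hexamer in capitals.
H13, first region, chr2:152512502-152512651, outside exons: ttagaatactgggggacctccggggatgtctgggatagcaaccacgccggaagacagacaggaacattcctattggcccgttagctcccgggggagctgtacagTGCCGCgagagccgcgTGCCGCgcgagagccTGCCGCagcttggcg
Gnas, upstream region, chr2:174121308-174121457, outside exons: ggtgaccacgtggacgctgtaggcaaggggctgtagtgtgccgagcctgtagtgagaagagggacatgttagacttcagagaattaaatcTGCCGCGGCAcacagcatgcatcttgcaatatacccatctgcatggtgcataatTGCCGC
Igf2r/Airn region, chr17:12934628-12934777, outside exons: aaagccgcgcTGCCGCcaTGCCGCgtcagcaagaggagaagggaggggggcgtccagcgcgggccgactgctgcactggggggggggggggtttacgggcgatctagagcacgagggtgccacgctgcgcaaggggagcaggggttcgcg
Inpp5f region, chr7:135831639-135831747, in an intron: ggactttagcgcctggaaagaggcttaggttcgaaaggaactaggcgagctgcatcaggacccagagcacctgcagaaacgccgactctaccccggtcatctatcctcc
Nap1l5/Herc3 region, chr6:58857544-58857693: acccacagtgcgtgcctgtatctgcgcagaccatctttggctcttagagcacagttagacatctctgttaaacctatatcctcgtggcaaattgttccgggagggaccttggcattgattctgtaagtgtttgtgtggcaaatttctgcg
Grb10, second region, chr11:11935419-11935544, in an intron: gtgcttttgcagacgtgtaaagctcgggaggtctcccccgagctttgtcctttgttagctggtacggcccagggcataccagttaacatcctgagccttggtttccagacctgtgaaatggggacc
Grb10, main region, chr11:11926350-11926499, outside exons: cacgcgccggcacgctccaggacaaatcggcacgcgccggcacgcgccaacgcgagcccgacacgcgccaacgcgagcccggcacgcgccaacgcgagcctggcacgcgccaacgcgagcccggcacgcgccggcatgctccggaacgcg
Commd1/Zrsr1 region, chr11:22873272-22873421, in an exon of Zrsr1: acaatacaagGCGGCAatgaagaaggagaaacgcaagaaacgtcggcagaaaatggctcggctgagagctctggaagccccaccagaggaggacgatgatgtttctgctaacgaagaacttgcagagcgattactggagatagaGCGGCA
The Gnas window held 3 hexamers, 2 of them overlapping, within 6 CpGs, and the Igf2r/Airn window 2 within 16 CpGs. The Commd1/Zrsr1 window held 2 hexamers, near its start and at its end. The Grb10 window held 33 CpGs and 0 hexamers, and the H13 window 3 hexamers within 14 CpGs.

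Each RNA library held between 18108431 and 29373696 reads on genes. Trim28, the target of the hairpin, had 1630 to 1990 CPM (counts scaled to library size) in WT shEmpty and 149 to 190 CPM in WT shKap1. It went from 1700 to 2090 CPM down to 327 to 506 CPM in DNMT TKO, and from 1770 to 1900 CPM down to 163 to 168 CPM in TET TKO. The log2 fall was smaller in DNMT TKO than in WT by 1.28 ± 0.21 (SE, adjusted p = 8e-04, edgeR quasi-likelihood test with Benjamini-Hochberg adjustment), so a weaker response in DNMT TKO and a weaker knockdown cannot be told apart there. In DNMT TKO shEmpty the targeted genes were lower than in WT shEmpty but kept reads, with 156 to 157 CPM against 478 to 513 CPM for Dnmt1, 6.55 to 8.49 against 50.8 to 71.9 CPM for Dnmt3a and 20.2 to 32.9 against 136 to 192 CPM for Dnmt3b. In TET TKO shEmpty, Tet1 had 219 to 247 CPM against 605 to 749 CPM and Tet2 90.1 to 92.1 against 333 to 453 CPM. Tet3 had 13.3 to 14.2 CPM in TET TKO and 10.7 to 15.9 CPM in WT (-0.03 ± 0.16, adjusted p = 0.92), so its level does not separate these lines. Counts are per gene and do not show whether the deleted exons carry reads. Summed markers of ES cells lay between 3400 and 3680 CPM in the shEmpty libraries and between 2150 and 2690 CPM in the shKap1 libraries. The part of this shift in the results below was not tested. Marker sums of fibroblasts and of endoderm stayed at or below 17.4 CPM in every library. Neural markers summed to 138 to 181 CPM, and among them Nes and Pax6 rose in WT knockdown (1.26 ± 0.11, adjusted p = 1.3e-07, and 2.77 ± 0.41, adjusted p = 5.5e-05) while Tubb3 and Neurod1 fell (-1.57 ± 0.23, adjusted p = 1.3e-04, and -1.42 ± 0.35, adjusted p = 0.0036). Trophoblast markers summed to 7.05 to 25.3 CPM in DNMT TKO and 36.4 to 65.5 CPM in the other lines, mostly from Krt8, which had a mean of 14.3 CPM in DNMT TKO shEmpty and 43.5 CPM in WT shEmpty (-1.62 ± 0.35, adjusted p = 0.0026). Cdx2 of the same list was higher in DNMT TKO, at 5.83 against 1.49 CPM (1.94 ± 0.19, adjusted p = 2.2e-07). Their part in the results was not tested either.

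Per length, the members spanned a wide range in WT shEmpty. In RPKM, read counts scaled to transcript length and library size, Gnas (13.4) and Igf2r (13.3) were highest and their libraries overlapped. Zrsr1 (9.05), Grb10 (7.95), Commd1 (6.27) and H13 (2.54) followed, each without overlap to the next. Nnat (1.65) and Inpp5f (1.33) overlapped, and Nap1l5 was lowest at 0.658. In WT shKap1, Inpp5f stood at 4.86 RPKM, above H13 (3.25) and Nnat (2.56).

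**Figure D1:**
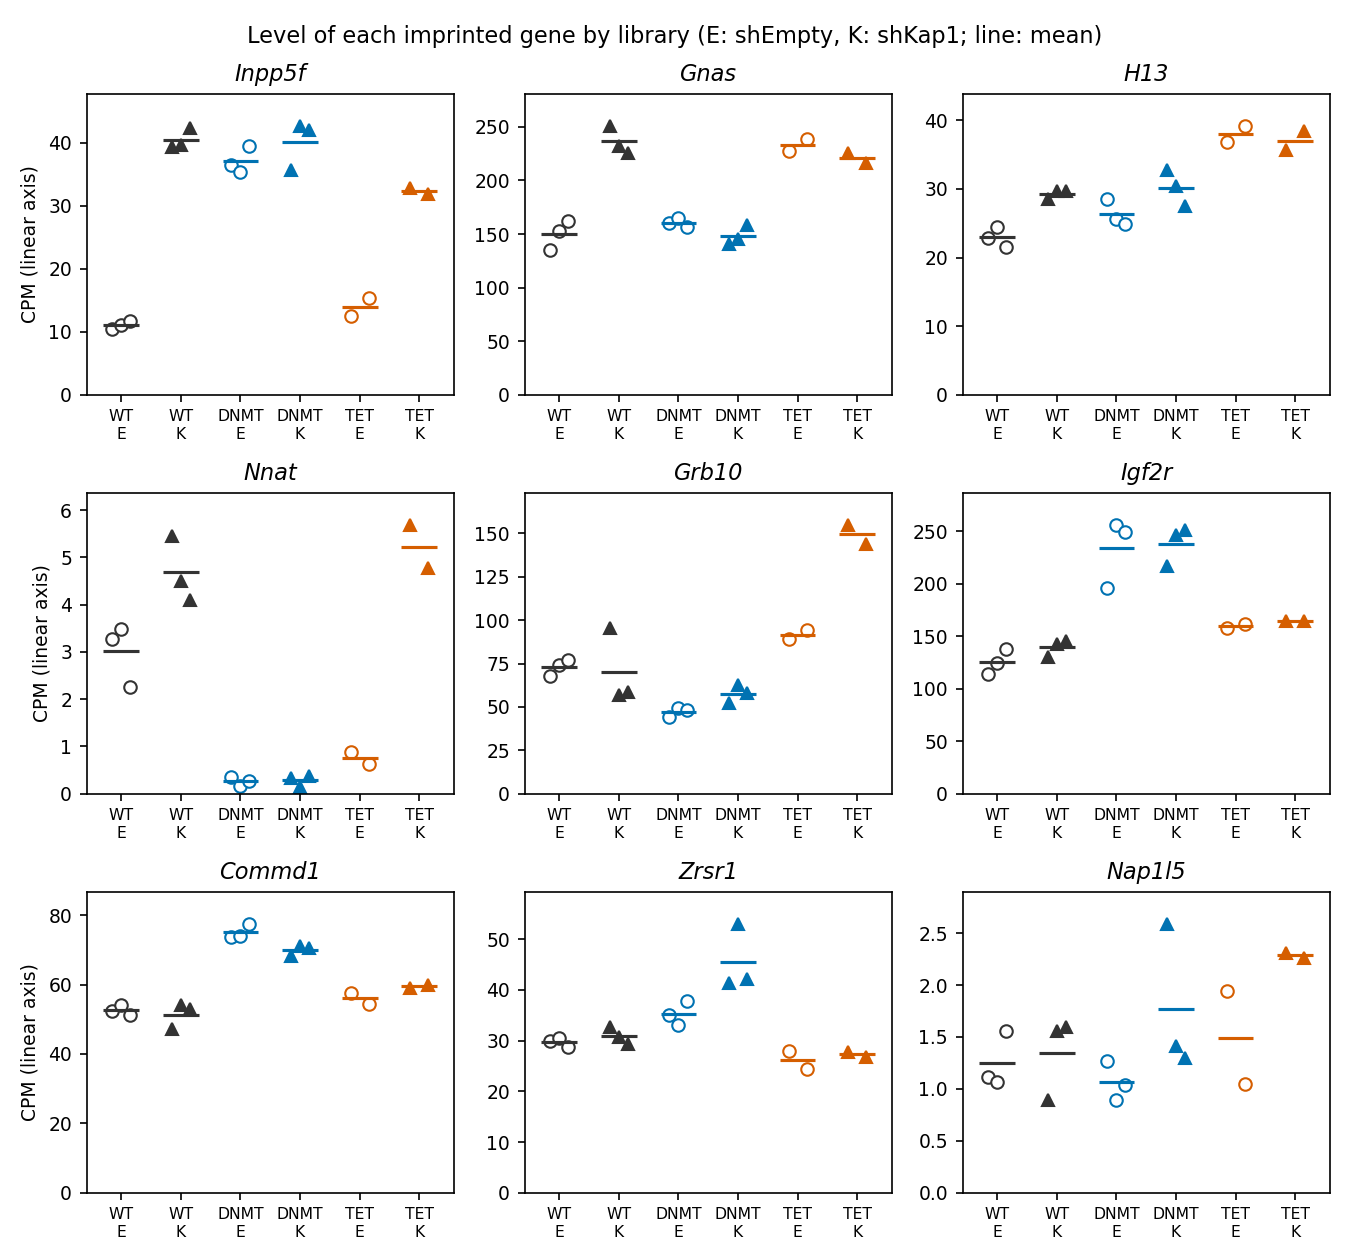
CPM (linear axis from 0) of the 9 genes in the 16 RNA libraries; circles are shEmpty, triangles shKap1, and lines group means (n = 3 for WT and DNMT TKO, n = 2 for TET TKO). Inpp5f sits at 10.5 to 11.7 CPM in WT shEmpty and 12.5 to 15.3 CPM in TET TKO shEmpty, and above 31 CPM in every other group, and Nnat is below 0.4 CPM in every DNMT TKO library.

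The first comparison asked which of these genes change when Kap1 is depleted in WT cells. Of the 9 members, 4 rose (Inpp5f, Gnas, H13 and Nnat) and 0 fell at an adjusted p below 0.05. Over all genes tested, 45.7% passed this threshold and 23.0% rose. The median log2 change of the members was 0.15, against -0.01 over all genes. Only Inpp5f also reached a 2-fold change, as did 17.4% of all genes. The libraries of both hairpins did not overlap for 4 of the 9 members, against 54.4% of all genes.

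Inpp5f, a phosphatase of inositol lipids, had 10.5, 11 and 11.7 CPM in WT shEmpty and 39.3, 39.7 and 42.4 CPM in WT shKap1. Every shKap1 library was thus far above every shEmpty library. The log2 change was 1.87 ± 0.09 (3.65-fold, adjusted p = 4.4e-11). Gnas, the alpha subunit of the stimulatory G protein, had 135, 153 and 162 CPM in shEmpty and 251, 232 and 226 CPM in shKap1. Its groups did not overlap either, and it rose by 0.66 ± 0.07 (1.58-fold, adjusted p = 2.2e-07). Gnas counts sum several promoters of the locus, and those of Inpp5f and Grb10 also sum their transcripts, so isoforms cannot be told apart.

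H13, which encodes signal peptide peptidase, had 22.9, 24.4 and 21.5 CPM in shEmpty and 28.5, 29.7 and 29.7 CPM in shKap1. The groups were separate and the rise was small (0.35 ± 0.08, 1.28-fold, adjusted p = 0.0016). Nnat, neuronatin of the endoplasmic reticulum membrane, had 3.28, 3.49 and 2.26 CPM in shEmpty and 5.45, 4.50 and 4.10 CPM in shKap1. It rose by 0.64 ± 0.22 (1.56-fold, adjusted p = 0.023), with separate groups at a low level. This call was lost without WT_shEmpty replicate 3 (0.47, adjusted p = 0.13) and without WT_shKap1 replicate 1 (0.54, adjusted p = 0.078).

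The other 5 members did not pass in WT. Igf2r, the receptor that takes up insulin-like growth factor 2, had 114, 124 and 138 CPM in shEmpty and 130, 143 and 145 CPM in shKap1 (0.15 ± 0.09, adjusted p = 0.19). Its groups overlapped, and with the replicate number as a block the edgeR value was 0.15 (adjusted p = 0.045). Grb10, an adaptor that restrains insulin and growth factor receptors, had 67.7, 74.0 and 76.9 CPM in shEmpty and 95.7, 57.1 and 58.5 CPM in shKap1. Here 1 shKap1 library lay above all shEmpty libraries and the other 2 below them. The log2 change was -0.05 ± 0.15 (adjusted p = 0.82). Without WT_shKap1 replicate 1 it was -0.32 (adjusted p = 0.0047), so the WT value of Grb10 rests on that library.

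Commd1, a protein of copper handling and endosomal sorting, had 51.2 to 54.1 CPM in shEmpty and 47.1 to 54.0 CPM in shKap1 (-0.03, 95% interval -0.15 to 0.08, adjusted p = 0.68). Zrsr1, a retrogene related to the splicing factor U2AF, had 28.8 to 30.5 CPM against 29.3 to 32.6 CPM (0.05, interval -0.13 to 0.23, adjusted p = 0.69). Nap1l5, a retrogene of the nucleosome assembly family, had 1.07 to 1.56 CPM against 0.891 to 1.60 CPM (0.11, interval -0.52 to 0.75, adjusted p = 0.82). The first 2 intervals lie within 0.25 of 0 on the log2 scale, whereas that of Nap1l5 would hold a change of over 1.5-fold.

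In DNMT TKO cells the same knockdown asked whether the changes need DNA methylation. Of the members 1 rose, Zrsr1, and 0 fell, whereas 35.3% of all genes passed and 19.7% rose. No member reached a 2-fold change, against 12.5% of all genes, and the groups were separate for 4 of 9 members and 44.7% of all genes. The median over the members was 0.17 and over all genes 0.02. With the replicate block 2 members passed, since H13 joined (0.20, adjusted p = 0.048, from 0.20 ± 0.08 and 0.068 without the block). Zrsr1 had 35.0, 33.1 and 37.7 CPM in shEmpty and 41.3, 53.0 and 42.2 CPM in shKap1. The groups were separate and Zrsr1 rose by 0.37 ± 0.09 (1.29-fold, adjusted p = 0.0038). Without DNMT_TKO_shKap1 replicate 2, the highest library, it was 0.21 (adjusted p = 0.052).

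Inpp5f in DNMT TKO had 36.5, 35.4 and 39.5 CPM with shEmpty and 35.7, 42.7 and 42.1 CPM with shKap1. These values overlapped each other and lay near the level of WT shKap1. The change was 0.12 ± 0.08 (adjusted p = 0.33). Gnas had 160, 165 and 157 CPM with shEmpty and 141, 145 and 158 CPM with shKap1, again overlapping (-0.11 ± 0.07, adjusted p = 0.20). Without DNMT_TKO_shKap1 replicate 3 Gnas was at -0.20 (adjusted p = 0.043). Nnat had 5 to 7 reads per shEmpty library and 3 to 10 reads per shKap1 library (0.141 to 0.371 CPM), too few to show a change of less than about 2-fold (interval -0.71 to 1.05). Nap1l5 had 1.27, 0.898 and 1.04 CPM against 2.59, 1.41 and 1.30 CPM, without overlap and without passing (0.72 ± 0.32, adjusted p = 0.087). Grb10 went from 44.0 to 49.4 CPM in shEmpty to 52.1 to 62.9 CPM in shKap1 (0.28 ± 0.16, adjusted p = 0.18). Without the WT_shKap1 library that stood apart it was 0.26 (adjusted p = 0.010).

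In TET TKO cells 3 members rose (Nnat, Inpp5f and Grb10) and 0 fell. Over all genes 30.4% passed and 15.3% rose. The medians were 0.09 for the members and -0.01 for all genes. Nnat and Inpp5f reached a 2-fold change, against 12.5% of all genes. Groups of 2 libraries separated for 7 of the 9 members, and for 69.9% of all genes.

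Nnat had 0.881 and 0.638 CPM in TET TKO shEmpty and 5.69 and 4.77 CPM in shKap1. It rose by 2.77 ± 0.31 (6.83-fold, adjusted p = 2e-06), from a lower start than in WT to about the same level. Inpp5f had 12.5 and 15.3 CPM with shEmpty and 32.9 and 31.8 CPM with shKap1 (1.22 ± 0.11, 2.32-fold, adjusted p = 1.8e-07). Both groups were separate for both genes. Grb10 had 89.1 and 94.1 CPM with shEmpty and 155 and 144 CPM with shKap1. Grb10 rose by 0.71 ± 0.18 (1.63-fold, adjusted p = 0.010), a call lost without TET_TKO_shEmpty replicate 1 (0.67, adjusted p = 0.066) and without TET_TKO_shKap1 replicate 1 (0.66, adjusted p = 0.059).

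Gnas did not respond in TET TKO, with 227 and 239 CPM in shEmpty and 226 and 216 CPM in shKap1 (-0.08, interval -0.23 to 0.08, adjusted p = 0.52). All 4 libraries lay above every WT shEmpty library and near those of WT shKap1. H13 had 36.8 and 39.2 CPM against 35.6 and 38.4 CPM (-0.04, interval -0.23 to 0.15, adjusted p = 0.81). Igf2r stayed at 158 and 162 CPM against 164 and 164 CPM (0.03 ± 0.11, adjusted p = 0.87).

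**Figure D2:**
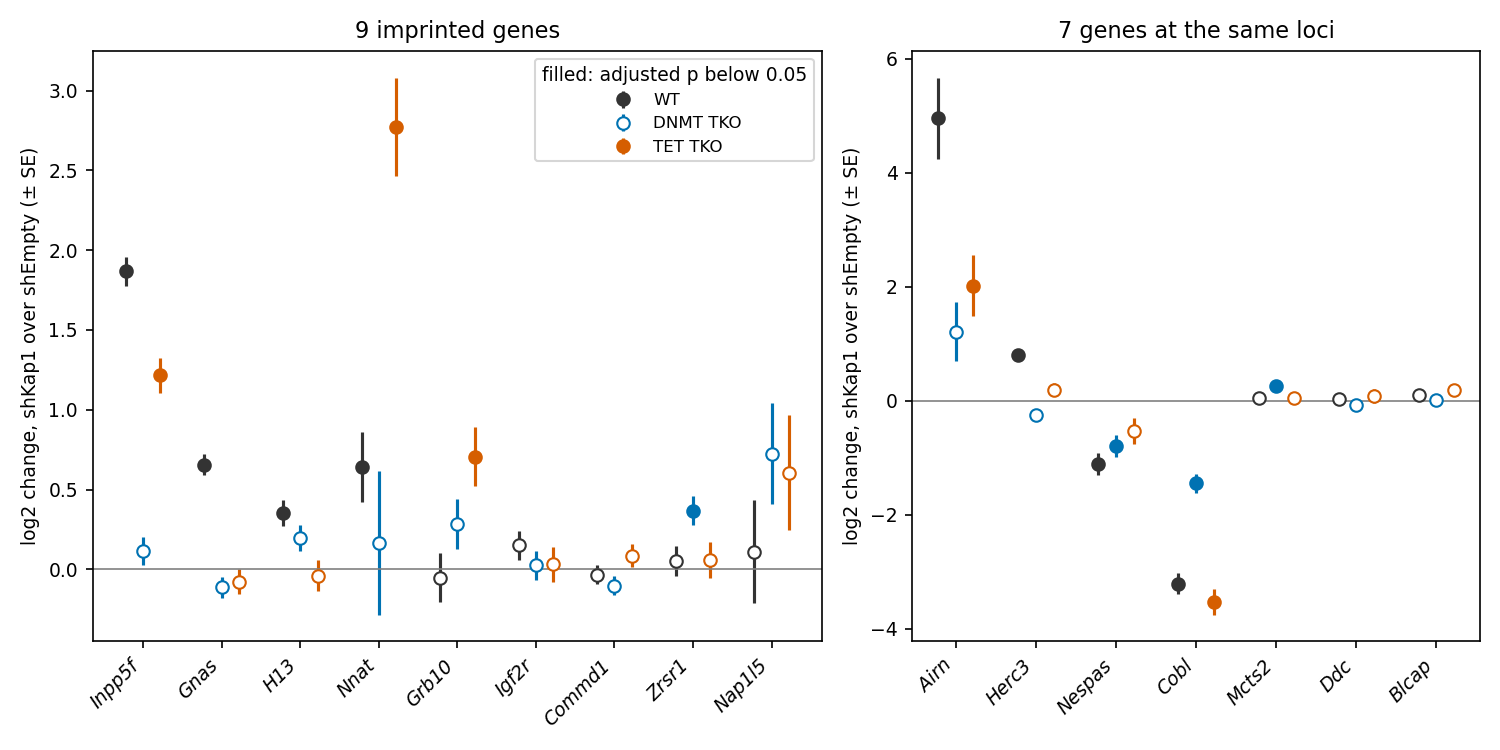
Log2 change of shKap1 over shEmpty (± SE derived from the edgeR F value) in WT, DNMT TKO and TET TKO cells for the 9 genes (left) and for 7 genes at the same loci (right, other scale). Filled points passed an adjusted p of 0.05. Inpp5f changed by 1.87 in WT, 0.12 in DNMT TKO and 1.22 in TET TKO.

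The difference of the knockdown effect between genotypes was then tested itself. DNMT TKO minus WT passed for 2 of 9 members, both lower, against 18.4% of all genes in either direction and 7.77% lower. Of these, 1 member and 7.14% of all genes differed at least 2-fold. These were Inpp5f (-1.75 ± 0.12, adjusted p = 3.6e-08) and Gnas (-0.77 ± 0.09, adjusted p = 1.3e-05). TET TKO minus WT passed for 3 members, 1 higher and 2 lower, against 9.69% of all genes (4.64% higher, 5.06% lower), and 1 member and 4.21% of all genes differed at least 2-fold. Gnas (-0.73 ± 0.10, adjusted p = 1.7e-04) and Inpp5f (-0.65 ± 0.14, adjusted p = 0.0069) responded less than in WT, and Nnat more (2.13 ± 0.38, adjusted p = 0.0016). Both comparisons share the WT libraries. Inpp5f missed the threshold in the latter without TET_TKO_shEmpty replicate 2 (-0.49, adjusted p = 0.083). H13 (-0.40 ± 0.13, adjusted p = 0.058) and Grb10 (0.76 ± 0.24, adjusted p = 0.066) missed it in TET TKO minus WT. H13 passed with DESeq2 (adjusted p = 0.026) and with only the compared groups (0.033), and Grb10 with limma-voom (0.018) and DESeq2 (0.016). Without WT_shKap1 replicate 1, Grb10 differed from WT by 1.03 in TET TKO (adjusted p = 3.2e-05) and by 0.57 in DNMT TKO (adjusted p = 0.0014, from 0.34 and 0.34).

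Without knockdown, 6 of 9 members passed in DNMT TKO against WT, 4 higher and 2 lower in DNMT TKO. Over all genes 43.6% passed, 20.5% higher and 23.1% lower. Of the members 2 differed at least 2-fold (16.3% of all genes), and 7 had separate groups (50.8% of all genes). Inpp5f was 3.35-fold higher in DNMT TKO than in WT shEmpty (1.74 ± 0.09, adjusted p = 6.6e-11), with values of 35.4 to 39.5 against 10.5 to 11.7 CPM. Igf2r had 196, 256 and 249 CPM against 114, 124 and 138 CPM, and the rise was 0.90 ± 0.09 (1.86-fold, adjusted p = 5.1e-07). Commd1 had 73.8, 74.1 and 77.5 CPM against 52.3, 54.1 and 51.2 CPM (0.52 ± 0.06, adjusted p = 1.3e-06). Nnat went the other way, with 0.173 to 0.355 CPM against 2.26 to 3.49 CPM (-3.52 ± 0.31, 11.5-fold lower, adjusted p = 6.5e-08).

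Commd1, Zrsr1 and Grb10 are on chromosome 11, whose 1720 tested genes had a median log2 change of 0.29 in this comparison, against -0.02 over all genes. Relative to the chromosome, Commd1 was at 0.23, Zrsr1 at -0.04 (0.25 ± 0.09, adjusted p = 0.036 as fitted) and Grb10 at -0.91 (-0.62 ± 0.16, adjusted p = 0.0047 as fitted). Grb10 had 44.0, 49.4 and 48.3 CPM in DNMT TKO, all below the 67.7 to 76.9 CPM of WT. The call for Zrsr1 was lost without each WT_shEmpty library in turn (adjusted p = 0.060 to 0.11) and without DNMT_TKO_shEmpty replicate 3 (adjusted p = 0.15). H13 had 28.5, 25.6 and 24.9 CPM and did not pass (0.20 ± 0.08, adjusted p = 0.058), whereas it did with the replicate block (0.20, adjusted p = 0.042). Gnas (157 to 165 CPM, 0.10 ± 0.07, adjusted p = 0.25) and Nap1l5 (0.898 to 1.27 CPM, adjusted p = 0.58) did not pass.

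In TET TKO against WT without knockdown 5 members passed, 4 higher and 1 lower in TET TKO, against 27.2% of all genes (14.1% higher, 13.1% lower). Only Nnat differed at least 2-fold (10.5% of all genes), and 8 members had separate groups (53.1% of all genes). Gnas had 227 and 239 CPM in TET TKO shEmpty and 135 to 162 CPM in WT shEmpty (0.63 ± 0.07, 1.55-fold, adjusted p = 2.8e-06). H13 had 36.8 and 39.2 CPM against 21.5 to 24.4 CPM (0.73 ± 0.09, 1.66-fold, adjusted p = 6.5e-06). Both genes thus stood, before the knockdown, at or above their level in WT shKap1. Nnat was 3.91-fold lower (-1.97 ± 0.30, adjusted p = 6.8e-05).

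Igf2r (0.35 ± 0.10, adjusted p = 0.015) and Inpp5f (0.33 ± 0.10, adjusted p = 0.025) were slightly higher in TET TKO. Igf2r lost the call without either TET_TKO_shEmpty library (adjusted p = 0.066 and 0.11) or WT_shEmpty replicate 1 (adjusted p = 0.055). Inpp5f lost it without TET_TKO_shEmpty replicate 2 (0.17, adjusted p = 0.39), WT_shEmpty replicate 1 (adjusted p = 0.065) or replicate 2 (adjusted p = 0.065), with limma-voom (0.32, adjusted p = 0.071) and with only the groups compared (adjusted p = 0.086). Grb10 (89.1 and 94.1 CPM, 0.33 ± 0.17, adjusted p = 0.18) was above every WT shEmpty library without passing. Without WT_shKap1 replicate 1 the adjusted p was 0.0043.

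The genes that share these loci were taken from a list of 9, of which 8 were tested. It was drawn up with earlier results of these data known. In WT knockdown 2 rose (Airn and Herc3) and 2 fell (Nespas and Cobl), where 23.0% of all genes rose and 22.7% fell. Airn, the non-coding RNA that silences Igf2r in cis, had 0, 1 and 0 reads in WT shEmpty and 12, 12 and 11 reads in WT shKap1. Every shKap1 library was above every shEmpty library, at 0.520 to 0.629 CPM. Over the summed reads the ratio was 42.7 (exact 95% counting interval 7.18 to 1740), and the fit gave an adjusted p of 1.9e-05. In TET TKO Airn went from 9 to 28 reads over 2 libraries (ratio 4.17, interval 1.91 to 10.0, adjusted p = 0.0080). Over 3 libraries of DNMT TKO the sum was 10 before and 22 after (ratio 2.38, interval 1.08 to 5.62, adjusted p = 0.081). Without DNMT_TKO_shKap1 replicate 1 the rise passed there (log2 change 1.52, adjusted p = 0.029 with edgeR). The effect in DNMT TKO was lower than in WT (-3.74 ± 1.01, adjusted p = 0.015), a difference lost without DNMT_TKO_shEmpty replicate 2 (adjusted p = 0.054) or WT_shEmpty replicate 3 (adjusted p = 0.052). The call in TET TKO was lost without TET_TKO_shEmpty replicate 2 (adjusted p = 0.053) or TET_TKO_shKap1 replicate 1 (adjusted p = 0.084). Counting used the strand of the gene, and how many reads of Igf2r were assigned to the wrong strand was not tested.

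Airn was already higher in the mutants than in WT without knockdown, with 10 reads over 3 DNMT TKO libraries (2.88 ± 0.93, adjusted p = 0.017) and 9 over 2 TET TKO libraries (3.17 ± 0.94, adjusted p = 0.018), against 1 read over 3 WT libraries. Leaving out single libraries, DNMT_TKO_shEmpty replicate 2, WT_shEmpty replicate 3 or either TET_TKO_shEmpty one, took the adjusted p to between 0.054 and 0.086. Igf2r itself was higher in the same lines, so both transcripts of the locus were higher than in WT.

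Herc3, a HECT-type ubiquitin ligase gene that holds Nap1l5 in an intron, had 25.4, 32.7 and 31.2 CPM in WT shEmpty and 47.8, 54.4 and 53.8 CPM in WT shKap1. The groups were separate and Herc3 rose by 0.80 ± 0.09 (1.74-fold, adjusted p = 1.6e-06). In DNMT TKO it had 34.2 to 36.8 CPM against 27.4 to 31.4 CPM (-0.24 ± 0.09, adjusted p = 0.053). This lay at the threshold: the adjusted p was 0.048 with the replicate block, 0.034 with DESeq2, 0.038 with RLE scaling and 0.024 without a filter on reads, but 0.058 with only the groups compared and 0.023 to 0.16 when single libraries were left out. The effect was lower than in WT in DNMT TKO (-1.04 ± 0.13, adjusted p = 2.3e-05) and in TET TKO (-0.61 ± 0.15, adjusted p = 0.014). The latter was lost without TET_TKO_shEmpty replicate 2 (adjusted p = 0.059) or TET_TKO_shKap1 replicate 2 (adjusted p = 0.099). Without knockdown, Herc3 in DNMT TKO differed from WT by 0.23 ± 0.09 (adjusted p = 0.052, 0.047 with the block, 0.020 with DESeq2, 0.060 with limma-voom, and 0.027 to 0.24 without single libraries), and by 0.52 relative to chromosome 6, whose median was -0.29.

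Nespas, an antisense RNA of the Gnas locus, had 6.72, 6.79 and 5.41 CPM in WT shEmpty and 2.52, 2.90 and 3.36 CPM in WT shKap1. It fell by 1.11 on the log2 scale in WT (SE 0.19, adjusted p = 1.2e-04) and by 0.79 in DNMT TKO (SE 0.19, adjusted p = 0.0032). In TET TKO it had 5.57 and 7.36 CPM against 4.58 and 4.36 CPM (-0.53 ± 0.22, adjusted p = 0.082). There it passed in a single alternative, the edgeR fit of only the groups compared (-0.49, adjusted p = 0.018). In WT the sense gene Gnas and the antisense Nespas thus moved in opposite directions. Cobl, an actin nucleator next to Grb10, fell in all 3 genotypes, from 328 to 363 CPM to 26.8 to 43.3 CPM in WT (-3.21 ± 0.18, adjusted p = 1.6e-08). In DNMT TKO the fall was smaller than in WT by 1.76 ± 0.23 (adjusted p = 2.1e-04), the same direction as the difference in Trim28.

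Mcts2, a retrogene in H13, had 27.4 to 31.1 CPM in WT shEmpty and 29.8 to 32.3 CPM in shKap1 (0.05 ± 0.09, adjusted p = 0.67). Whether reads of its parent gene were counted for Mcts2 was not tested. In DNMT TKO it rose by 0.26 ± 0.09 (adjusted p = 0.023), lost without any of 4 DNMT TKO libraries (adjusted p = 0.050 to 0.10). Mcts2 was lower in TET TKO than in WT (-0.57 ± 0.10, adjusted p = 2.2e-04) while H13 was higher there. Ddc and Blcap, the neighbours of Grb10 and Nnat, did not pass in any knockdown in the main fit, with log2 changes from -0.07 to 0.19. In TET TKO Blcap lay near the threshold (0.19, adjusted p = 0.068 with edgeR). It passed with DESeq2 (0.034), RLE scaling (0.047), another filter on reads (0.03) and only the groups compared (0.01). With limma-voom and with the replicate block it did not. Slc22a3 had at most 17 reads in a library. It was called lower in DNMT TKO than in WT without knockdown (1 read against 30 over 3 libraries each, adjusted p = 0.0064), though its libraries overlapped and limma-voom gave an adjusted p of 0.055. Slc22a2 had 1 read in all and was not tested.

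Other imprinted genes, a list of which 31 were tested, gave the wider picture in the same cells. The list was drawn up with earlier results of these data known, so its counts are no test against all genes. In WT knockdown 19 rose and 6 fell, with a median of 0.68, where 23.0% of all genes rose and 22.7% fell. In DNMT TKO 8 rose and 4 fell (median 0.04; 19.7% and 15.6% of all genes), and in TET TKO 13 rose and 5 fell (median 0.43; 15.3% and 15.1%). Among genes with at least 500 reads the 2 largest changes in WT were Magel2, at 0.0356 to 0.248 CPM before and 3.38 to 4.77 CPM after (4.68 ± 0.35, adjusted p = 6.5e-09), and Igf2, the ligand of Igf2r, at 5.83 to 12.4 CPM and 67.5 to 91.3 CPM (3.01 ± 0.23, adjusted p = 2.4e-07). Igf2 also rose in DNMT TKO, from 1.00 to 1.37 CPM to 25.3 to 39.4 CPM (4.61 ± 0.31, adjusted p = 1.5e-07). Magel2 was the other there, from 0.518 to 0.762 CPM to 3.17 to 3.53 CPM (2.46 ± 0.28, adjusted p = 2.4e-06). In TET TKO the 2 were Magel2, from 0.211 to 0.376 CPM to 2.93 to 3.33 CPM (3.40 ± 0.38, adjusted p = 2e-06), and Dio3, a thyroid hormone deiodinase, which fell from 42.4 to 42.7 CPM down to 5.18 to 6.25 CPM (-2.89 ± 0.20, adjusted p = 6.2e-09).

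Among 12 genes of imprint maintenance, Tet3 rose in WT knockdown from 10.7 to 15.9 CPM to 46.6 to 53.3 CPM (1.80 ± 0.14, adjusted p = 1.8e-08). In this list 3 genes rose and 5 fell in WT, 1 rose and 5 fell in DNMT TKO, and 2 rose and 3 fell in TET TKO, against the same shares of all genes. Trim28, the target of the hairpin, is in this list and is 1 of the falls in each genotype. This list too was drawn up with earlier results of these data known. Dnmt3a rose in WT (1.15 ± 0.13, adjusted p = 5.2e-06), in DNMT TKO (0.89 ± 0.17, adjusted p = 6.7e-04) and in TET TKO (1.26 ± 0.17, adjusted p = 3.9e-05). In DNMT TKO these are the remaining reads of a targeted gene, at 6.55 to 8.49 CPM before and 13.1 to 15.2 CPM after.

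The 5hmC counts came from WT cells and had 1 usable library per condition, so a change could not be tested. Summed over every region of all sets, the input had 4590132 reads for shEmpty and 6522892 for shKap1, while the immunoprecipitate had 7824611 and 8817570. The sets overlap, so a read in several regions counts more than once, and these sums are not library totals. The change is on the log2 scale, taking 5hmC relative to input after knockdown minus the same before it. For this, 1 read was added to each count and each library was scaled to its sum over the regions. Its 95% interval covers counting error only, since reads are not independent molecules and no second usable library gave the spread between cultures. Of the 10 member regions 9 had at least 10 reads over the 2 inputs. The interval lay above 0 in 4 of these 9, included 0 in 5 and lay below 0 in none. The count above 0 was 2 (upstream Gnas and Airn) when scaled to H3K4me3 regions, to KAP1 regions or with at least 30 input reads. The larger Grb10 region lay below 0 under both scalings and the Commd1 region under that to KAP1 regions. The interval lay above 0 in 46.4% of the 28 ICRs and 26.6% of the 25992 KAP1 regions with enough input. The median change was 1.25 over the member regions, 0.91 over the other ICRs and 0.64 over KAP1 regions. It was 0.39 over H3K4me3 and 0.27 over H3K27me3 regions, so 0 was not the usual value under this scaling. The members were chosen as loci with and without a 5hmC gain, so their share and median are no test against the other sets.

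The upstream Gnas region (chr2:174118405-174125287) covers starts of Gnas transcripts and of Nespas, and overlaps 2 KAP1 regions. It had 136 reads of 5hmC with shEmpty and 382 with shKap1, against 126 and 159 reads of input. The change of 1.48 (interval 1.05 to 1.92) rested on the most reads of all member regions. In shEmpty 5hmC lay below input (log2 ratio -0.66) and in shKap1 above it (0.82). Within the locus, the H3K4me3 region across its upstream edge (chr2:174118042-174119257) went from 21 to 18 reads (0.08, interval -1.05 to 1.21). The next 3 H3K4me3 regions went from 23 to 79, from 22 to 81 and from 82 to 214 reads, with changes of 1.52, 1.47 and 1.45 whose intervals all lay above 0. Whether the edge differs from the rest was not tested.

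About 43.2 kb into Gnas, the downstream region (chr2:174152612-174153503, labelled GnasXL in the table) overlaps no KAP1 region. It had 6 and 15 reads of 5hmC against 18 and 22 of input (1.25, interval -0.30 to 2.80). The H3K4me3 region around it had 40 and 42 reads against 27 and 40 (-0.15, interval -1.07 to 0.78), and the larger H3K27me3 region 131 and 154 against 88 and 124 (0.08, interval -0.44 to 0.59). The interval of the control region itself holds the value seen upstream.

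The Igf2r/Airn region (chr17:12934627-12935815) lies 27.3 kb into Igf2r, in an intron, and overlaps a KAP1 region. Its 5hmC went from 11 to 53 reads against 16 and 21 reads of input (2.13, interval 0.85 to 3.42). The KAP1 region there gave 9 and 63 reads (2.41, interval 1.16 to 3.65) and the H3K4me3 region 15 and 76 (2.28, interval 1.22 to 3.34). At the start of Igf2r itself the H3K4me3 region had 3 and 8 reads (0.71, interval -1.22 to 2.64). Beside it, Airn rose in WT and Igf2r did not pass without the block.

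At Grb10 and at Commd1/Zrsr1 the region with most reads showed no such gain. The main Grb10 region (chr11:11923326-11926800), which overlaps a KAP1 region and a KAP1-dependent H3K9me3 region, had 141 and 117 reads of 5hmC against 67 and 85 of input (-0.27, interval -0.85 to 0.31). The Commd1/Zrsr1 region (chr11:22871546-22874145), with a KAP1 region inside, had 143 and 186 reads against 76 and 121 (0.05, interval -0.47 to 0.56). Both already had 5hmC above input in shEmpty (log2 ratios 0.29 and 0.13), whereas the upstream Gnas and Igf2r/Airn regions lay below it (-0.66 and -1.27). This starting ratio is itself subtracted in the change. The KAP1 region at Grb10 lay below input in shEmpty (-0.83) and changed by 0.19 (interval -0.91 to 1.28). The KAP1-dependent H3K9me3 region there also lay below it (-0.83) and changed by 0.77 (interval -0.37 to 1.91). The intervals of the main Grb10 and Commd1/Zrsr1 control regions exclude the 1.48 of Gnas. The interval lay above 0 in 1 of the 5 H3K4me3 regions at Grb10 and 1 of the 7 at Commd1/Zrsr1, against 12.4% of all H3K4me3 regions: one near the end of Grb10 (chr11:11832835-11833370) went from 16 to 29 reads against 17 and 9 of input (2.00, interval 0.60 to 3.41), and one beside the Commd1/Zrsr1 region (chr11:22875451-22876772) from 5 to 15 against 46 and 39 (1.98, interval 0.50 to 3.47). RNA of Commd1, Zrsr1 and Grb10 did not pass in WT knockdown.

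The remaining regions had few reads. The second Grb10 region (chr11:11935419-11935544), 126 bp with no KAP1 region, had 7 and 16 reads of 5hmC against 7 and 3 of input (2.42, interval 0.31 to 4.54). The H3K27me3 region of 5599 bp around it had 93 and 104 reads (0.22, interval -0.32 to 0.75), an average over far more sequence than the small region. The deposited Nap1l5/Herc3 region (chr6:58857396-58857788), which lies just outside Nap1l5, had 5 and 19 reads against 7 and 6 (2.26, interval 0.30 to 4.23), while the KAP1 region over it had 29 and 59 against 19 and 25 (0.96, interval -0.10 to 2.01). The Inpp5f region (chr7:135831639-135831747) had 3 and 17 reads against 3 and 4, under the minimum of input. The KAP1 region over it had 45 and 108 reads against 18 and 43 (0.37, interval -0.55 to 1.29), so the gene with the largest RNA rise had no 5hmC change that this depth could show.

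The 2 regions of H13 had 1 and 2 reads of 5hmC (0.60, interval -2.21 to 3.40) and 2 and 0 reads (-1.11, interval -4.60 to 2.38), and neither overlapped a KAP1 region. The H3K4me3 region over most of the first (chr2:152511491-152512658) had 4 and 13 reads against 20 and 20 of input (1.82, interval 0.11 to 3.53). It was 1 of 2 with an interval above 0 among the 8 H3K4me3 regions of H13, against 12.4% of all H3K4me3 regions. For Nnat, which the deposited table leaves out, the KAP1 region at its start had 4 and 9 reads of 5hmC against 11 and 13 of input (1.11, interval -0.80 to 3.02), and the H3K4me3 region 55 and 64 against 53 and 64 (0.28, interval -0.45 to 1.01).

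**Figure D3:**
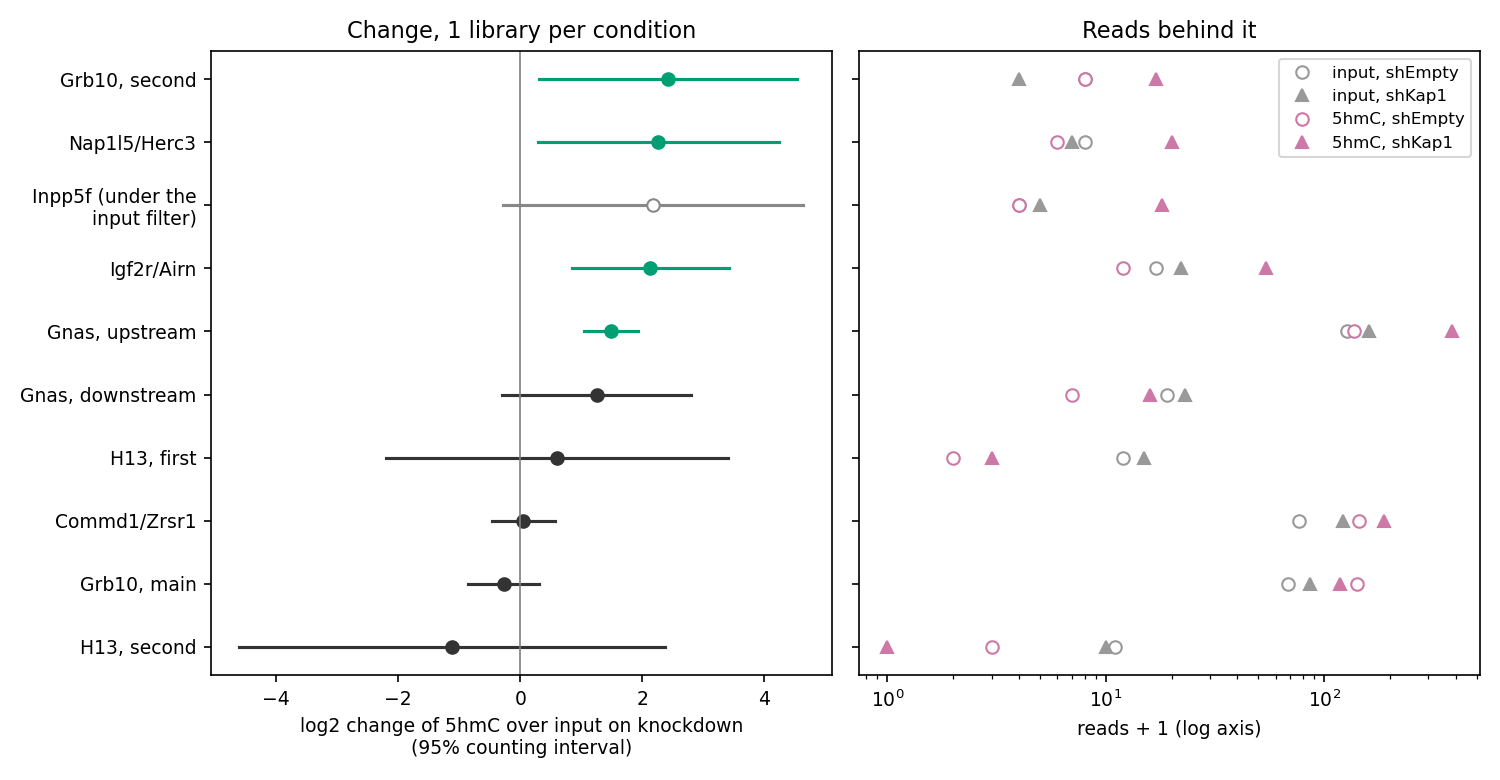
Left, log2 change of 5hmC over input on knockdown in WT with its 95% counting interval at the 10 control regions, green where the interval lies above 0 and open where input was too low; right, the reads plus 1 behind it on a log axis. Upstream Gnas has the narrowest interval above 0 (1.05 to 1.92), and the main Grb10 and Commd1/Zrsr1 regions, with over 100 reads of 5hmC in each library, have intervals that include 0.

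The alternatives tried were other scalings and settings and the summed KAP1 regions over each control region, which gave the 2.41 at Igf2r/Airn. Under all of them the gains at Gnas and Igf2r/Airn held their side of 0, at 0.77 to 1.49 and 1.42 to 2.41. Those at Nap1l5/Herc3 and the second Grb10 region did not: scaled to the reads in H3K4me3 regions their values were 1.88 and 2.03 and their intervals included 0. With the same scaling the main Grb10 region was at -0.66, with an interval below 0.

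**Figure D4:**
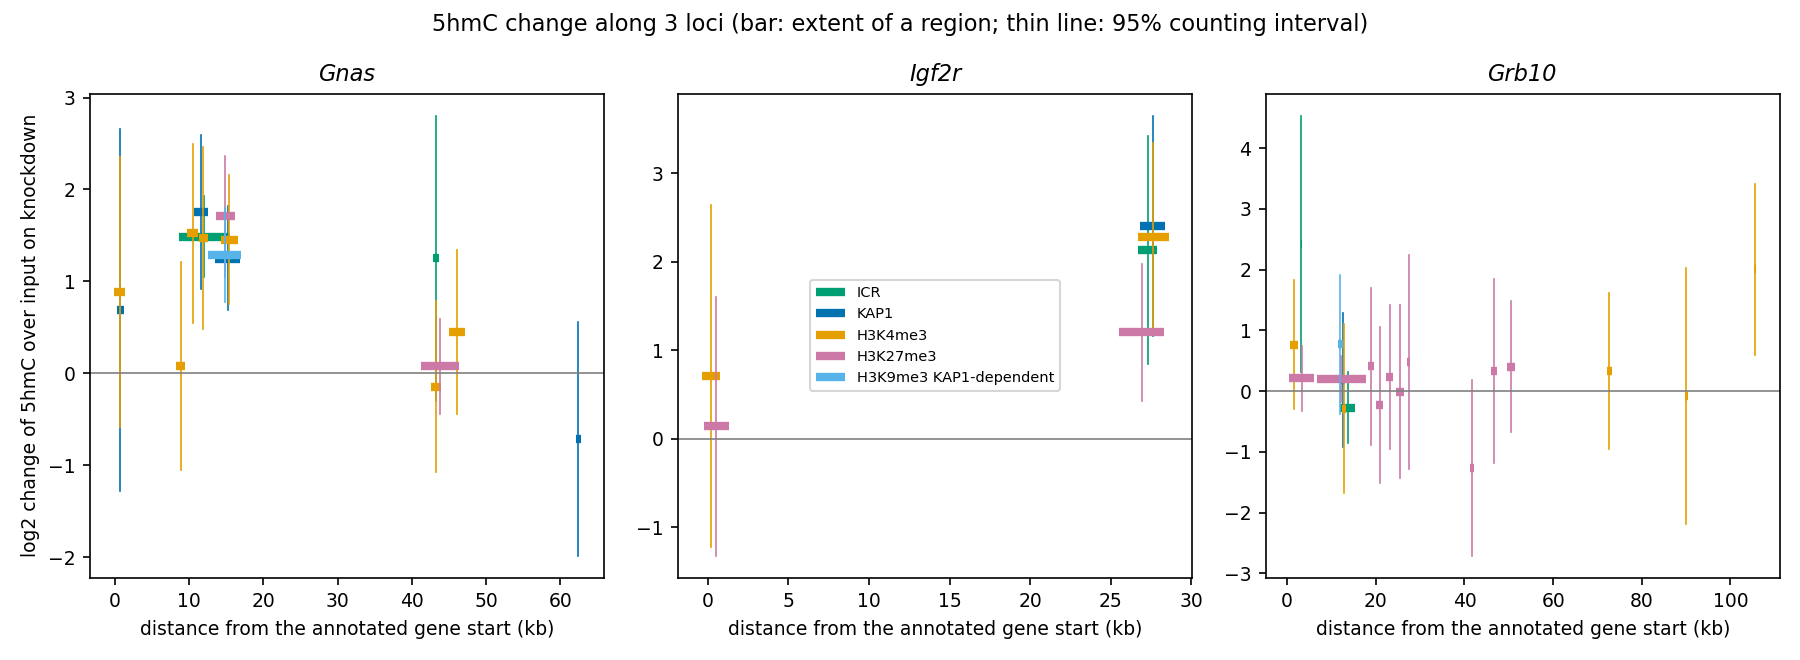
Log2 change of 5hmC over input for every deposited region in 3 loci against its distance from the annotated gene start in kb; bars span the region and thin lines are 95% counting intervals. The gain at Gnas lies in regions about 10 to 17 kb from the start, that at Igf2r about 27 kb from it, and at Grb10 the wide H3K27me3 regions stay near 0.2.

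Set side by side in WT, Gnas had both a 5hmC interval above 0 and an RNA rise. At Igf2r/Airn and at Nap1l5/Herc3 the partner transcript rose (Airn, Herc3) while the member did not pass, although Igf2r did with the replicate block (edgeR, adjusted p = 0.045). The interval of the Nap1l5/Herc3 region, with 7 and 6 reads of input, lay above 0 but included 0 when scaled to H3K4me3 regions. The KAP1 region over it had an interval that included 0 (0.96, -0.10 to 2.01). Grb10 had no RNA call, and its main region, with most reads, had an interval including 0 (-0.27). The second Grb10 region, with 7 and 3 reads of input, had an interval above 0 that included 0 when scaled to H3K4me3 regions. Commd1 and Zrsr1 had no RNA call and an interval including 0 at their control region, although an H3K4me3 region over the end of Zrsr1 had an interval above 0. Inpp5f and H13 rose in RNA, but their deposited control regions had too few reads to show a gain or its absence. The larger KAP1 region over that of Inpp5f gave 0.37, with an interval (-0.55 to 1.29) that excludes the change of the upstream Gnas region. At H13 the H3K4me3 region over most of the first control region had an interval above 0, from 4 and 13 reads of 5hmC. Its lower bound of 0.11 lay under the median change of 0.39 over H3K4me3 regions. With 1 usable hMeDIP library per condition, no test of this relation was made.

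H3K4me3 peaks within 500 bp of the annotated start were found in both ChIP replicates of WT cells for 8 of the 9 members, Grb10 being the exception, and for 68.2% of the 20321 genes tested. Grb10, whose annotated start is at chr11:11938686, had deposited H3K4me3 regions outside this window. One lay close to it (chr11:11936334-11938119) and another in the main control region (chr11:11925385-11926372). H3K27me3 peaks were found in both replicates for 4 members (Grb10, Igf2r, Nap1l5 and Nnat) and for 14.6% of genes. In each replicate Grb10 had the highest H3K27me3 score of these 4 (1126 and 917), and the other 3 lay between 70 and 153 in replicate 1 and between 122 and 284 in replicate 2.

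The genes whose log2 CPM followed each member most closely over the 16 libraries were on other chromosomes in all but 2 cases. For Inpp5f they were Spg20 (r = 0.973) and Col5a2 (r = 0.970), for Gnas Rnf19a (0.952) and Tcf12 (0.945), and for Igf2r Rad50 (0.976) and Fgfrl1 (0.976). Commd1 went with Zfp330 (0.979) and Dazl (0.978), Zrsr1 with Spc25 (0.943) and Gtf2f2 (0.940), and Nnat with Ttyh3 (0.960) and Atp5e (0.960). Grb10 went with Wt1 (0.929) and Insig1 (0.922), H13 with Mapk8ip3 (0.929) and Ttl (0.929), and Nap1l5 with Gm10074 (0.843) and Entpd5 (0.842). The libraries share 3 genotypes and 2 hairpins, so these values describe the pattern over groups.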

How the data were processed

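RNA was measured in 16 libraries (TruSeq stranded mRNA, single-end reads of 100 bp). The authors aligned reads to mm9, with HISAT2 2.0.1 named in the submitters' processing notes, and deposited whole-number counts per gene made with featureCounts on the reverse strand; the notes name version 1.5.1. hMeDIP read counts per region were deposited for sets of regions, also on mm9. The deposited ChIP peak files hold a score per peak as the callers gave it (MACS 1.4 and SICER 1.1 are named). Gene lengths, deposited beside the counts by the authors, were used for RPKM.

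Genes reaching a sum of 16 reads were tested with edgeR 4.0.16 (TMM scaling, quasi-likelihood F-test, 6 groups in 1 fit, Benjamini-Hochberg adjustment over 20321 genes, threshold 0.05) in R 4.3.3. The study's methods used limma-voom, run here as an alternative (limma 3.58.1), as was DESeq2 1.42.0. Depth was 18108431 to 29373696 reads on genes per library. Replicates are separate libraries, and the study describes independent experiments. Same-numbered libraries deviated together over 13505 genes with at least 500 reads. The r was 0.296 to 0.474 between WT hairpins, 0.203 to 0.574 between DNMT TKO hairpins and 0.317 to 0.511 between WT and DNMT TKO shEmpty. The number was therefore tried as a block, which comes from the values, not the labels. Libraries of different number were not compared, so pairing and an effect of 1 replicate number shared by the groups cannot be told apart. Comparisons with TET TKO were not paired.

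5hmC changes used 1 added read, a minimum of 10 reads over the 2 inputs and 95% intervals for counting error. Sequences were read from the mm9 genome with samtools 1.23.1 and annotated with GENCODE vM1. The members and gene lists were chosen with earlier results of these data known. Named genes were all members and locus partners, and for the other imprinted and imprint maintenance lists the 2 genes with at least 500 reads and the largest changes past the threshold in each knockdown. The second hMeDIP replicate of each condition (4 libraries) was left out of every comparison, because labels and files gave different roles.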

Additional observations from a re-analysis of the deposited data

Results flagged for a closer look

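The knockdown effect differed between genotypes, by the interaction term of the edgeR fit, for 5 genes in DNMT TKO against WT. Inpp5f changed by 1.75 less on the log2 scale in DNMT TKO (-1.753), Gnas by 0.77 less (-0.77), Airn by 3.74 less (-3.742, from 1 read in WT shEmpty) and Herc3 by 1.04 less (-1.042), while Cobl fell less (1.76). The fall of Trim28 was also smaller in DNMT TKO (1.28), and its part in these differences was not tested.

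In TET TKO against WT the effect differed for 4 genes. Gnas (-0.733), Inpp5f (-0.651) and Herc3 (-0.606) responded less than in WT, and Nnat more (2.129). The fall of Trim28 differed here by -0.06 (adjusted p = 0.93, edgeR).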

How the results depend on the processing

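Of the values for single genes and regions under the alternatives, 3168 counted as unchanged, 78 passed the threshold newly, 69 no longer passed, 15 moved and 1 reversed. The reversed one was Zrsr1 in DNMT TKO against WT, at -0.041 relative to the median of its chromosome. A gene counted as unchanged if it kept its side of the threshold, whatever its direction where neither value passed. Relative to a chromosome median, a shift below the SE counted as unchanged. For a region it was enough that the new value lay inside the main interval, even where the new interval came to include or exclude 0. Requiring a 2-fold change left 1 member in WT knockdown, 0 in DNMT TKO knockdown, 2 in DNMT TKO against WT, 1 in TET TKO against WT and 1 in each difference of knockdown effects. Knockdown in DNMT TKO gave 2 members with the replicate block and 2 with only the compared groups, and the TET TKO difference gave 5 with DESeq2. The block also took the unpaired difference of H13 in TET TKO to an adjusted p of 0.035 (edgeR), and changed no other call of a member beyond those given in the report. Leaving out each library in turn gave 3 to 4 members in WT knockdown, 0 to 3 in DNMT TKO, 2 to 3 in TET TKO, 5 to 7 in DNMT TKO against WT, 3 to 6 in TET TKO against WT, and 2 to 3 and 2 to 4 for the differences. The cause was not tested. Over all genes, the 2-fold rule left 3529 of 9277 in WT knockdown, 2533 of 7170 in DNMT TKO, 2542 of 6178 in TET TKO, 3309 of 8865 and 2127 of 5523 for the lines, and 1450 of 3738 and 855 of 1970 for the differences. Leaving out a library took the counts involving TET TKO as low as 4060, 3532 and 974. The count of control regions with a 5hmC interval above 0 went from 4 to 2 when scaled to H3K4me3 regions, to 2 when the one deposited region with most reads was left out of the scaling totals, to 2 when scaled to KAP1 regions, to 2 with at least 30 input reads and to 2 over the KAP1 regions summed. With 1 usable hMeDIP library per condition, depth limits the 5hmC changes of Inpp5f, H13, Nap1l5 and the second Grb10 region most.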

Other observations

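For 4 hMeDIP libraries of replicate 2, labels and processed files named different roles, so each is given by its label as a single value, in RPM (reads scaled to the library's reads over all regions). The library labelled input of shEmpty had 10.4 at the upstream Gnas region, 1.36 at Igf2r/Airn, 14.4 at Grb10 and 19.2 at Commd1/Zrsr1. The library labelled input of shKAP1 had 26.2, 3.59, 14.7 and 19.3 there. The library labelled 5hmC of shEmpty had 26.3, 3.02, 11.4 and 18.6, and the one labelled 5hmC of shKAP1 had 23.2, 3.22, 13.2 and 18.7. At the second H13 region the libraries labelled input and 5hmC of shEmpty both had 0, and those of shKAP1 had 2.22 and 2.41. Replicate 1 had 2.18 and 1.38 there for input (shEmpty, shKap1) and 0.256 and 0 for 5hmC. The labels may thus not give the roles, and no change on knockdown can be read from these 4 libraries.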
